A study of Mus musculus with 4 samples.

Results

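Klhl1 Fras1 Grm8 nuclei are a set of excitatory nuclei of the mouse hippocampus that were chosen by the UMIs of 6 genes. A UMI, or unique molecular identifier, is the tag by which one RNA molecule is counted. A nucleus was taken where its barcode held at least 5000 UMIs, where at least 4 of Klhl1, Grm8, Fras1, Tox, Sorcs1 and Pdlim1 had 2 or more UMIs each, and where Slc17a7 had at least 1 UMI, Tshz2 at most 2, Prox1 at most 1 and the sum of Gad1 and Gad2 at most 1. This selected 849 of 32572 barcodes with 5000 or more UMIs. The study isolated nuclei of hippocampal tissue from adult mice and sequenced their RNA with the 10x Genomics Chromium kit in 4 libraries. Of these, 2 libraries are Control, with a Kat6a gene flanked by loxP sites (Kat6a-f/f), and 2 are Kat6a-cKO, which carry NEX-cre together with the same Kat6a-f/f alleles. NEX-cre drives Cre recombinase from Neurod6, a gene of forebrain excitatory neurons, so the floxed alleles are shared by both groups and Cre is present in 1 of them. The labels give no sex, age in weeks, batch or day, and they do not say whether each library is 1 animal, so the p-values below measure the spread between these libraries.

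The genes of the rule come from different systems. Klhl1 is an actin-binding protein of neurons with kelch repeats, Grm8 is a presynaptic metabotropic glutamate receptor that lowers transmitter release, and Fras1 is an extracellular matrix protein best known from basement membranes. Tox is a nuclear protein with an HMG box, Sorcs1 is a sorting receptor with a Vps10 domain, and Pdlim1 is a PDZ and LIM domain protein of the actin cytoskeleton. Slc17a7 and Slc17a6 load glutamate into synaptic vesicles. In the hippocampal formation, pyramidal neurons of CA1 to CA3 pass signals to the subiculum, its main output field, while granule cells (marked by Prox1) and mossy cells lie in the dentate gyrus. Kat6a is a histone acetyltransferase that works in a complex with the Brpf proteins, Ing5 and Meaf6. The comparison of Kat6a-cKO with Control asks which genes differ between libraries with and without its deletion in excitatory neurons. Only Kat6a-cKO carries NEX-cre, so the deletion and the NEX-cre allele cannot be told apart in any genotype difference below.

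The 849 nuclei were spread over all libraries, with 166 and 151 in Control against 311 and 221 in Kat6a-cKO. No barcode was shared between libraries among them. Whole libraries held 171323466 to 186897245 UMIs and 7911 to 8442 barcodes with 5000 or more UMIs. The nuclei of the rule were deep: their median was 24178 and 23456 UMIs in Control against 20149 and 21553 in Kat6a-cKO, against 16336 to 17060 in other excitatory nuclei. Other excitatory nuclei means here those with Slc17a7, with Prox1 at most 1, Gad1 and Gad2 at most 1 and at most 1 of the 6 markers at 2 or more UMIs (11049 nuclei). Summed over the nuclei of the rule, a library held 3701901 to 6823783 UMIs. Scrublet, which simulates mixtures of 2 nuclei in a droplet, marked 3, 4, 10 and 9 of them as doublets in the order Control 1, Control 2, Kat6a-cKO 1 and Kat6a-cKO 2, and this order is kept below. With levels in CPM, UMIs scaled by the total of the summed nuclei as counts-per-million, the 7 astrocyte markers summed to 122 to 137 CPM, against 297 to 319 in other excitatory nuclei. Of the 12 inhibitory neuron markers, none was at 0 and their sum was 76.0 to 102 CPM, against 302 to 417 CPM in the others. The list holds Gad1 and Gad2, which the choice of both classes keeps low, and Adarb2, named below among the genes of lowest ratio. The sum is thus no measure of inhibitory RNA alone. The endothelial and mural markers summed to 48.8 CPM in Kat6a-cKO 1 and to 19.2 to 24.6 CPM in the other libraries, against 9.46 to 13.4 CPM in other excitatory nuclei. This list includes Dcn, which was at 72.3, 65.7 and 68.5 CPM in sub-clusters 2, 6 and 9 described below. Flt1, Cldn5 and Rgs5 were at 17.9, 11.9 and 13.4 CPM in sub-cluster 9. In the other sub-clusters they were at most at 2.0, 0.62 and 6.01 CPM. Pecam1, Pdgfrb and Vtn were at 4.46, 1.49 and 1.49 CPM in sub-cluster 9, which held 5, 9, 14 and 5 nuclei of the libraries. The part of these genes and of sub-cluster 9 in the sums was not tested.

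The label puts Klhl1 first, and the data went only partly with it. Klhl1 had 2 or more UMIs in 372 of the 849 nuclei (43.8%), namely in 68, 74, 149 and 81 of each library. Fras1 reached 2 UMIs in 99.2% of the nuclei, Grm8 in 96.0%, Tox in 93.8%, Sorcs1 in 92.6% and Pdlim1 in 25.7%. In other excitatory nuclei, which were shallower, the share with 2 or more Klhl1 UMIs was 0.864% to 1.52%, and for Fras1 it was 15.01% to 20.6%. Most members therefore met the rule through Fras1, Grm8, Tox and Sorcs1, and a minority had 2 Klhl1 UMIs. Exactly 4 of the markers were present in 515 nuclei, 5 in 235 and all 6 in 99, while 829 nuclei lay just outside the rule with 3 markers and 1417 had 2. All these counts follow from the choice of the nuclei and are given as a description, with no test.

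The same holds for the levels of the rule genes, which were high by construction. Klhl1 (chromosome 14, 96102736 to 96519102, minus strand, positions of GENCODE M21 on GRCm38) was at 131, 146, 138 and 102 CPM, against 5.19 to 6.41 CPM in other excitatory nuclei. Grm8 was at 845, 933, 1137 and 1033 CPM against 26.9 to 43.1, and Fras1 at 603, 542, 648 and 553 CPM against 39.4 to 51.3. Tox and Sorcs1 differed the same way, with 337 to 472 CPM against 8.26 to 16.9 and with 344 to 390 CPM against 10.1 to 14.1. Pdlim1 had the narrowest gap, 37.4, 43.8, 58.2 and 53.9 CPM against 5.34 to 6.53. Nuclei with 3 or more Tshz2 UMIs and 2 or more Vwc2l UMIs, which the rule leaves out, also held Klhl1 (166 to 339 CPM), Grm8 (1161 to 1384 CPM) and Tox (561 to 718 CPM), but Fras1 was at 155 to 175 CPM and Pdlim1 at 6.40 to 14.1 CPM there. Klhl1, Grm8 and Tox were thus shared with another set of excitatory nuclei of the same libraries, and Fras1 and Pdlim1 were lower in it.

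Outside the rule, the 25 genes with the highest ratio to other excitatory nuclei were named by a fixed rule of size, again as a description. The receptor phosphatase Ptprt was at 685, 759, 777 and 678 CPM against 54.4 to 73.1, 10.0 to 12.3 times as high with 5 CPM added to both sides. The alpha-1A adrenergic receptor Adra1a was at 103, 77.5, 102 and 61.9 CPM against 6.18 to 10.4. The LIM domain binding factor Ldb2 was at 644 to 806 CPM against 105 to 131, and the glypican Gpc6 at 295 to 390 CPM against 48.3 to 58.7. The N-deacetylase and N-sulfotransferase genes Ndst4 and Ndst3 were at 663 to 726 CPM against 114 to 126 and at 683 to 814 CPM against 154 to 179. The sulfotransferase gene Hs3st2 was at 56.5 to 71.8 CPM against 5.54 to 12.3. Adhesion and guidance genes were the cadherin Cdh4 (165 to 192 CPM against 26.6 to 29.2), the astrotactin Astn2 (788 to 1139 against 175 to 219) and the ephrin Efna5 (242, 216, 378 and 211 CPM against 23.0 to 48.4). The lincRNAs Gm42705 and Gm42707, which lie on chromosome 3 at 143743377 to 143827012 and 143878393 to 143954774, were at 56.1 to 77.7 and 29.5 to 45.3 CPM, and at 1.79 to 2.05 and 0.368 to 0.474 CPM in the others. Pcdh15 and Dpp10 stood out in Kat6a-cKO 1, with 1052 CPM against 420 to 498 in the other libraries for Pcdh15 and 2726 CPM against 1468 to 1706 for Dpp10, and both were also higher in the other excitatory nuclei of that library (169 and 601 CPM).

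Genes lower in the nuclei of the rule included markers of dentate granule and CA3 neurons. Among the 10 genes with the lowest ratio, Slc4a4 was at 16.7 to 23.8 CPM against 180 to 245, the cadherin Cdh9 at 27.6 to 43.5 against 330 to 377, the RNA-editing relative Adarb2 at 21.9 to 33.9 against 210 to 313 and the Notch coactivator Maml2 at 35.5 to 51.1 against 370 to 430. Of the 7 granule cell markers, 6 were at least 2-fold lower than in other excitatory nuclei in all 4 libraries, and of the 7 CA3 markers 4 were. How many of all genes were this much lower was not counted. The granule cell list holds Prox1, which the choice of both classes keeps low, and Maml2, named above among the genes of lowest ratio. The granule cell count is thus not independent of these choices. The CA3 marker Nectin3, a cell adhesion protein, was at 42.7, 66.7, 34.3 and 36.7 CPM against 225 to 281, and Iyd at 0, 1.89, 0.440 and 0.202 CPM against 9.44 to 11.4.

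Markers of no single neighbouring class were all raised. The counts of markers at least 2-fold higher stand without the share over all genes, which was not computed. With 5 CPM added to both sides, a gene under 5 CPM in both classes cannot reach 2-fold. Of 7 CA1 markers 1 was at least 2-fold higher (the mannosidase Man1a, 806, 785, 708 and 792 CPM against 248 to 307), while Fibcd1, a defining CA1 gene, was at 6.74 to 10.2 CPM against 16.9 to 24.2. Of 8 subiculum markers, 2 were higher, Ndst4 and the contactin Cntn6 (146, 176, 242 and 142 CPM against 38.5 to 54.5), and Fn1, a defining gene of subicular pyramidal neurons, was at 1.08 to 5.28 CPM. Of 7 markers of layer 6 corticothalamic neurons, 2 were higher, Fezf2 (22.4 to 37.1 CPM against 4.84 to 6.09) and Garnl3 (196 to 227 against 39.7 to 60.9). The sum of these 7 markers was lower, at 1190.5 to 1601 CPM against 1847 to 2406. Fezf2 is also among the layer 5 extratelencephalic markers, of which 1 of 7 was higher. Of 7 near-projecting markers 1 was higher, and of 9 intratelencephalic markers 1 was higher and 2 were lower. Of 6 markers of layer 6b, none was higher and Ccn2 and Ctxn3 had 0 counts. The 849 nuclei are therefore called the nuclei of the rule.

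**Figure D1:**
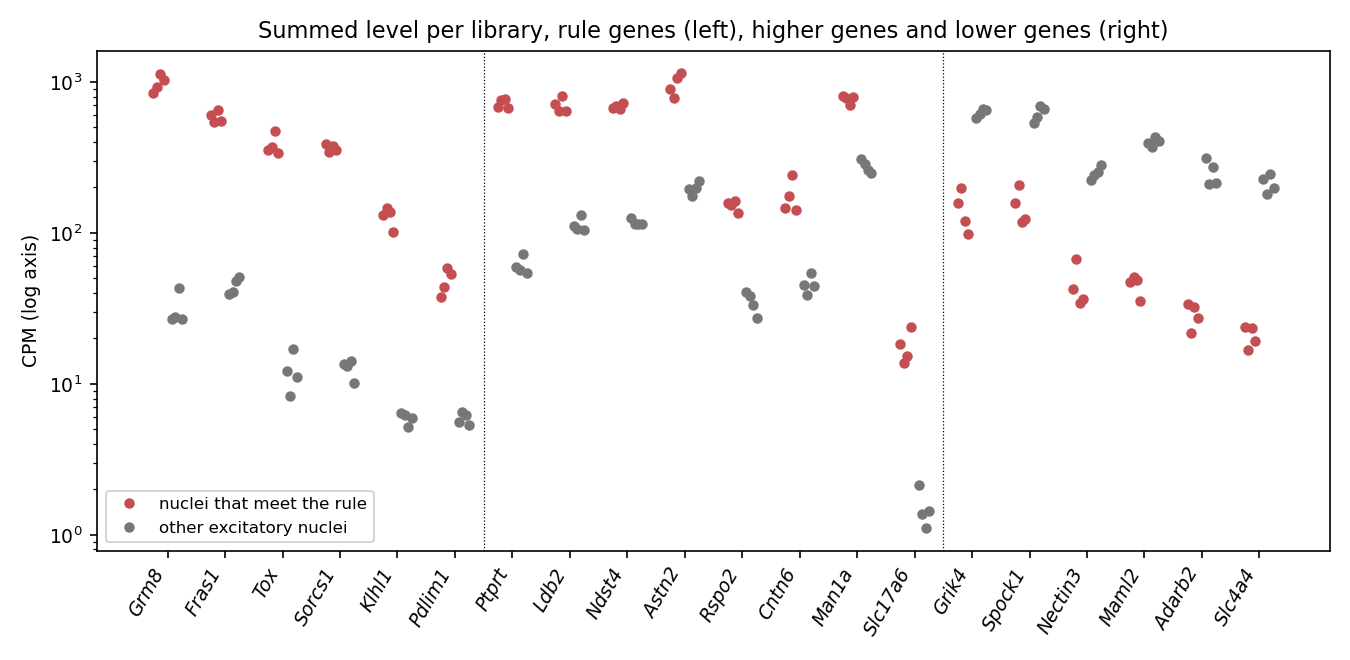
CPM on a log axis for rule genes (left), genes higher in the nuclei of the rule (middle) and genes lower in them (right), with 1 point per library for the nuclei of the rule (red) and for other excitatory nuclei (grey). The red points of Ptprt lie at 678 to 777 CPM and the grey ones at 54.4 to 73.1, and the groups of points do not meet in any gene shown.

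Single genes of families fixed for the description are given next. How many of all genes differed by 2-fold was not counted, so no reading of whole families is made. Among glutamate receptor genes, the kainate receptor subunit Grik1 (22.4 to 45.7 CPM against 4.75 to 7.99) and the NMDA receptor subunit Grin3a (68.1 to 92.0 against 21.0 to 29.1) were higher. The kainate receptor subunit Grik4 was lower, at 98.4 to 199 CPM against 581 to 664. In the Wnt and R-spondin list Rspo2, a secreted protein that strengthens Wnt signalling, was higher, at 158, 154, 163 and 136 CPM against 27.1 to 40.9. The T-type calcium channel gene Cacna1g was at 50.8 to 57.5 against 16.6 to 19.1. Among axon guidance genes the netrin relative Ntng1 was higher (495 to 720 CPM against 136 to 197). The semaphorin Sema5a (21.2 to 47.0 against 187 to 241) and the netrin receptor Dcc (636 to 718 against 1983 to 2356) were lower. Of the relatives of the rule genes, Tox2 (61.9 to 79.1 CPM against 10.6 to 11.4) and Sorcs2 (259 to 306 against 81.9 to 130) were higher as well.

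The nuclei were not of one kind. They were clustered among themselves without the rule genes and without the 15 genes that differed by genotype below, which gave 10 sub-clusters. The leading genes of sub-cluster 1 (168 nuclei) included Sgcz (2068 CPM), Mkx and Cntn5 (1772 CPM). It held Slc17a6 at 44.2 CPM, and 86.3% of its nuclei had 2 or more Klhl1 UMIs. Those of sub-cluster 8 (59 nuclei) included Zfp804b (1130 CPM) and Kctd8, and 84.7% of its nuclei had 2 or more Klhl1 UMIs. These 2 sub-clusters held 195 of the 372 nuclei with Klhl1 in 227 nuclei. Both had much Efna5 (524 and 1077 CPM) and less Man1a than the sub-clusters described next (423 and 253 CPM).

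The sub-clusters 2, 3, 5 and 6, with 430 nuclei, were the reverse. In them 8.78%, 21.6%, 17.9% and 14.9% of the nuclei had 2 or more Klhl1 UMIs, Efna5 was at 36.7, 7.65, 17.1 and 96.0 CPM, and Man1a was at 1032, 1171, 1107 and 893 CPM. Sub-cluster 2 (148 nuclei) had Necab1, Vegfd and Col5a2 among its leading genes, and sub-cluster 3 (148 nuclei) Plekhg1, Bcan and Col11a1. Sub-cluster 5 (67 nuclei) had Il1rapl2 and the serotonin receptor gene Htr2a among them. Sub-cluster 6 (67 nuclei) had Cdh20 and Pparg among them and held the most Rspo2, 493 CPM, while sub-clusters 3, 4 and 8 held 17.1, 23.3 and 4.83 CPM of it. The level of Rspo2 in the whole set is thus an average over sub-clusters that differ widely.

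The remaining sub-clusters were smaller. Sub-cluster 4 (78 nuclei, 59.0% with Klhl1) had Dchs2 and the sodium channel gene Scn9a among its leading genes. Sub-cluster 7 (60 nuclei) was led by Rmst, Glis3 and Maml2, and 24 of its nuclei were marked as doublets. Sub-cluster 9 (33 nuclei) was led by Kitl and held the activity genes Bdnf (357 CPM), Nr4a3 (332 CPM), Homer1 (2815 CPM) and Fos (56.5 CPM), where the other sub-clusters held 0 to 8.75 CPM of Fos. Sub-cluster 10 (21 nuclei) was led by Gm32647 (9291 CPM), Trps1 (4305 CPM) and Csf2rb2 (199 CPM). In sub-cluster 10 all nuclei had 2 or more Klhl1 UMIs, yet Tox and Pdlim1 were at 2.84 CPM each, so its nuclei met the rule through Klhl1, Grm8, Fras1 and Sorcs1. The mossy cell markers Drd2 (32.6 CPM) and Calb2 (28.4 CPM) were in sub-cluster 10, and in the other sub-clusters they were at 0 to 0.604 and 0 to 1.49 CPM.

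**Figure D2:**
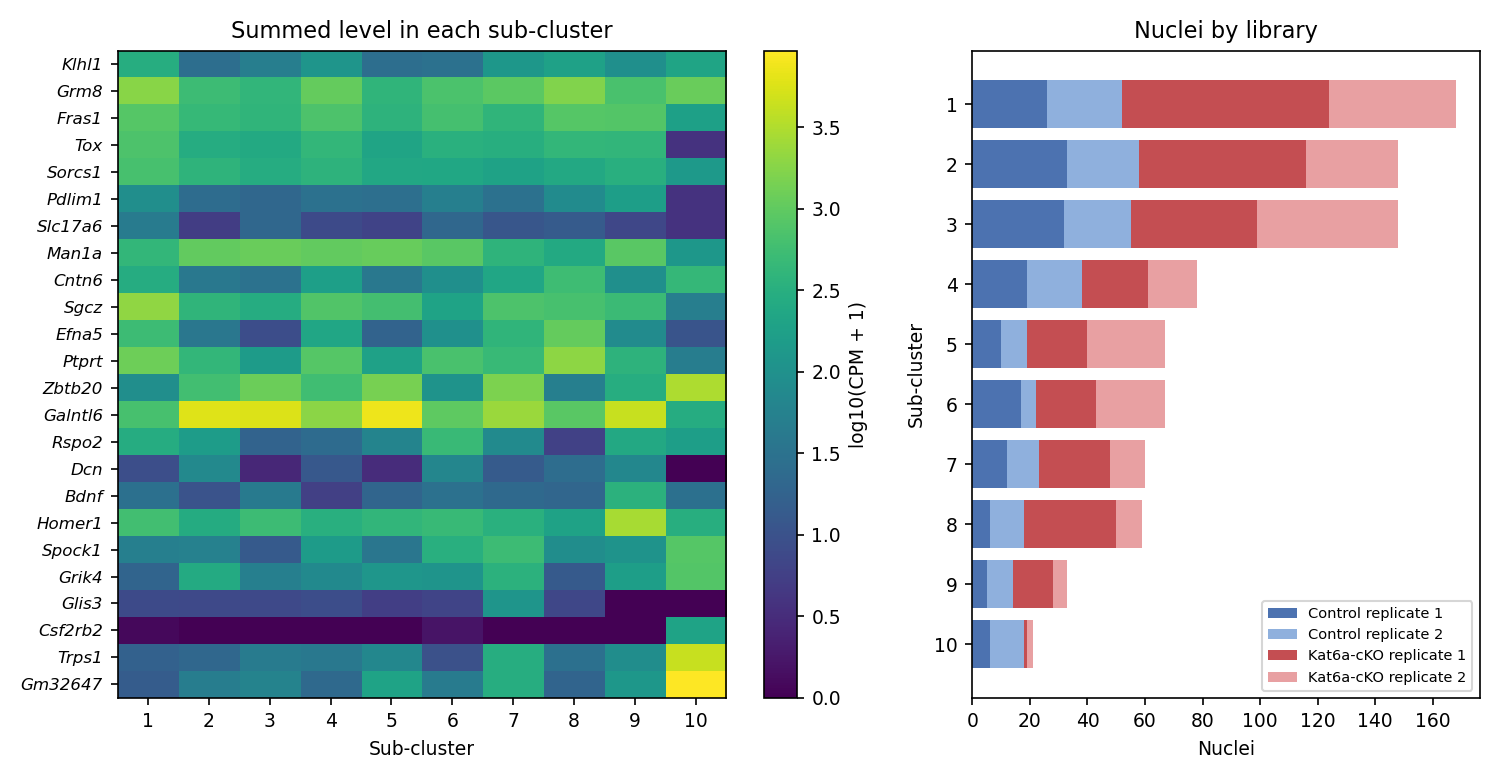
Left, log10 of CPM + 1 (colour) of named genes (rows) in each of the 10 sub-clusters (columns), and right, the nuclei of each sub-cluster (bars, stacked by library). Efna5 is at 524 CPM in sub-cluster 1 and at 36.7 CPM in sub-cluster 2, and sub-cluster 10 holds 6 and 12 Control nuclei and 1 and 2 Kat6a-cKO nuclei.

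The nuclei of the rule made up a larger share of excitatory nuclei in both Kat6a-cKO libraries than in both Control libraries. In Control they were 2.91% of 5701 excitatory nuclei (95% Clopper-Pearson interval 2.49 to 3.38) and 2.58% of 5857 (2.19 to 3.02). In Kat6a-cKO they were 5.56% of 5593 (4.97 to 6.19) and 3.78% of 5841 (3.31 to 4.31), and the intervals cover counting error only. The means were 2.74% ± 0.236 (SD, n = 2) and 4.67% ± 1.26 (SD, n = 2), a difference of 1.93 percentage points. The exact permutation test over the libraries, two-sided, gave p = 0.33, the smallest that 2 libraries against 2 can give, so the difference could not pass a threshold. Without Kat6a-cKO 1 the difference was 1.04 percentage points. A nucleus is counted here by its marker UMIs, so more nuclei of a kind and more marker RNA per nucleus cannot be told apart.

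Several counts move with this share, and their part in it was not tested. Nuclei with 3 or more Prox1 UMIs were 25.9% and 25.3% of excitatory nuclei in Control against 18.5% and 18.7% in Kat6a-cKO. Taken over excitatory nuclei other than these, the shares of the rule were 3.93% and 3.45% in Control against 6.82% and 4.65% in Kat6a-cKO. Nuclei with Tshz2 and Vwc2l were at 4.49% and 2.99% in Control against 5.26% and 5.17% in Kat6a-cKO, and those with Hs3st4 and Foxp2 at 0.368% and 0.444% against 1.09% and 0.582%. The median UMIs of all excitatory nuclei were 15609 and 15282 in Control against 15433 and 15682 in Kat6a-cKO and overlapped between the groups. After barcodes with 10000 or more UMIs were thinned to 10000 and all others left out, the shares were 1.84% and 1.25% against 3.82% and 2.26%. These shares are thus taken over fewer excitatory nuclei than the main ones. With 2 or more Klhl1 UMIs as a further condition they were 1.19% and 1.26% against 2.66% and 1.39%. Among sub-clusters, 4 of 10 (1, 3, 5 and 6) had a larger share of excitatory nuclei in both Kat6a-cKO libraries, 1 (sub-cluster 10) a smaller one, and 5 overlapped. Sub-cluster 1 was at 0.456% and 0.444% in Control against 1.29% and 0.753% in Kat6a-cKO.

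**Figure D3:**
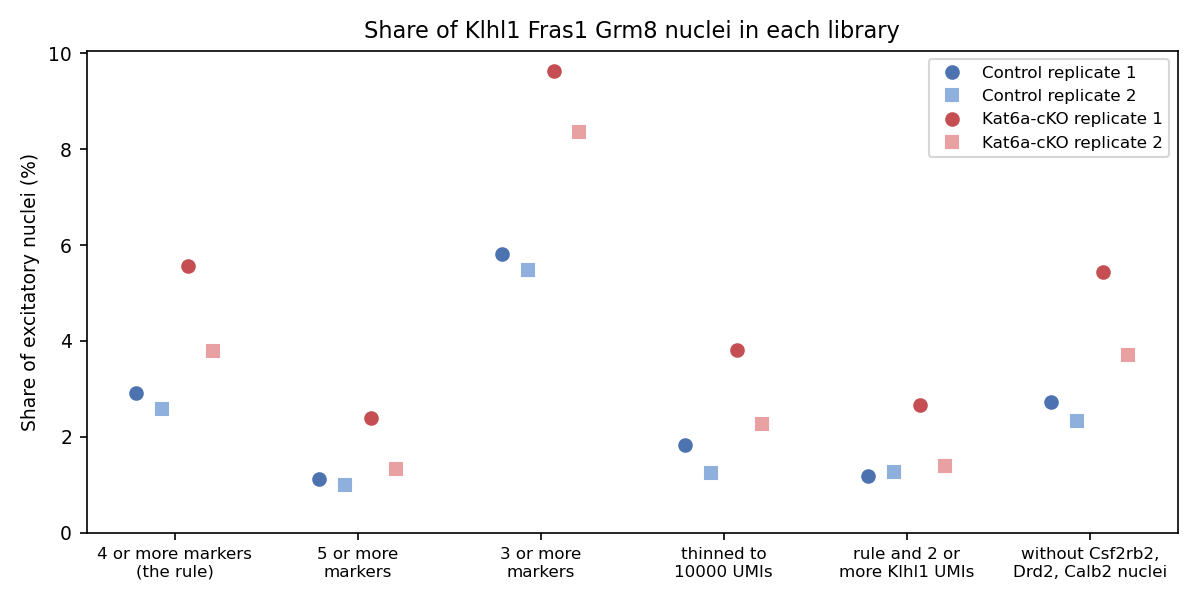
Share of excitatory nuclei (%) that met the rule and 5 variants of it, with 1 point per library (Control blue, Kat6a-cKO red). Both Kat6a-cKO points lie above both Control points in each variant shown, by the least with 2 or more Klhl1 UMIs (1.26% and 1.39% for the nearest pair).

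The targeted gene Kat6a did not pass the test in these nuclei. After TMM scaling, which evens out library composition and is used for all CPM values from here on, Kat6a was at 67.4 and 68.1 CPM in Control against 64.6 and 70.1 CPM in Kat6a-cKO, a log2 fold change of −0.01 ± 0.12 (SE, adjusted p = 0.996, edgeR). A floxed deletion removes part of a gene, the labels do not say which, and counts over the whole gene need not drop, so this level checks nothing. The files also hold an entry named cre, with 0 and 0 counts in the Control sums, which allows up to 0.692 and 0.810 CPM, and 10 and 7 counts in the Kat6a-cKO sums. It matches the labels in all 4 libraries. In other excitatory nuclei the cre counts were 0, 0, 83 and 99.

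In the genotype comparison 15 of 12116 genes passed a Benjamini-Hochberg adjusted p of 0.05 in the edgeR quasi-likelihood test on sums per library, which is 0.124% of the genes tested, with 1 higher and 14 lower in Kat6a-cKO. At an unadjusted p under 0.05 there were 738 genes. Each library bore on this count, which was 99 without Control 1, 89 without Control 2, 31 without Kat6a-cKO 1 and 143 without Kat6a-cKO 2, with the lone library of a group taken to vary like the pair of the other. It was 2 among nuclei with at least 5 markers and 1 among those with at least 3. The balance moved as well, to 75 higher and 68 lower without Kat6a-cKO 2, 37 and 52 without Control 2, and 61 and 112 without a filter on low counts. The 1 gene that rose was Gm3279 (ENSMUSG00000108063.1), a lincRNA on chromosome 6 at 55684571 to 55694574, next to Neurod6. It was at 0.940 and 1.58 CPM in Control against 25.8 and 25.4 CPM in Kat6a-cKO, a log2 fold change of 4.33 ± 0.30 (adjusted p = 0.00013). Neurod6, the gene that carries NEX-cre, was at 32.4 and 35.6 CPM and at 26.7 and 18.9 CPM (log2 fold change −0.56 ± 0.18, adjusted p = 0.544) and did not pass. Gm3279 also rose in other excitatory nuclei, by 4.85 on the log2 scale, and with cre it made up the 2 genes of 18768 that passed there.

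The falls with the largest size were those of Csf2rb2, a cytokine receptor subunit, and of 2 lincRNAs. Csf2rb2 was at 11.3 and 21.9 CPM in Control against 0.603 and 1.41 CPM in Kat6a-cKO (log2 fold change −4.07 ± 0.47, adjusted p = 0.0071). Csf2rb2 has a near-identical neighbour gene, Csf2rb, and how reads were shared between them is not given in the sources used here. Gm32647 was at 564 and 1062 CPM in Control against 113 and 135 CPM in Kat6a-cKO (−2.71 ± 0.24, adjusted p = 0.000863). Without nuclei with 3 or more glial UMIs the log2 fold change of Gm32647 was 1.51 and passed in the opposite direction (adjusted p = 0.0171). That filter took out 106, 88, 184 and 138 of the 166, 151, 311 and 221 nuclei. Its genes include Slc1a2, which every sub-cluster held, from 60.4 CPM in sub-cluster 8 to 262 CPM in sub-cluster 10. With at least 5 markers the log2 fold change of Gm32647 was 1.14 and did not pass. The lincRNA 4930467D21Rik was at 15 and 17.9 CPM against 1.36 and 3.63 CPM (−2.79 ± 0.36; −2.17 without Kat6a-cKO 1 and −3.57 without Kat6a-cKO 2), and 9530026P05Rik, which runs antisense to Adamts9, at 18.1 and 28.5 against 4.37 and 5.64 (−2.22 ± 0.28). The counting strand is not given in the sources used here, so reads of that pair cannot be told apart. In each of these genes the values of both Kat6a-cKO libraries were under those of Control, and Control 2 was the highest. Summed over all 7 mossy cell markers, the nuclei of the rule were at 35.5 and 59.7 CPM (before TMM scaling) in Control against 22.1 and 19.6 CPM in Kat6a-cKO.

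The other 10 genes that fell had smaller log2 fold changes. Trps1, a GATA-type repressor, was at 231 and 503 CPM in Control against 81.1 and 121 CPM in Kat6a-cKO (log2 fold change −1.87 ± 0.29). Trps1 did not pass in DESeq2 (adjusted p = 0.442), and its log2 fold change was −1.20 without Control 2 and −2.32 without Control 1. Trhde, which degrades thyrotropin-releasing hormone, was at 164 and 240 CPM against 69.5 and 77.8 (−1.46 ± 0.16), and the synaptic vesicle protein gene Synpr at 42.3 and 55.1 against 17.0 and 18.9 (−1.44 ± 0.17). The BMP receptor gene Bmpr1b was at 30.1 and 49.6 CPM against 14.2 and 9.27 (−1.73 ± 0.26). Pdlim5, a PDZ and LIM domain gene, was at 24.7 and 29.0 CPM against 11.3 and 10.7 (−1.28 ± 0.18). Adamts18, Necab1, Luzp2 and Inpp4b fell by 1.35, 1.09, 1.02 and 0.88 on the log2 scale, and Inpp4b did not pass without Kat6a-cKO 1 (−0.76). Gpc5, a glypican of the cell surface, was at 730 and 745 CPM against 476 and 442, the smallest fall of the 14 (−0.68 ± 0.10, adjusted p = 0.0227).

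Most of the genes that fell were higher in a small set of the nuclei. Members with at least 1 UMI of the mossy cell markers Csf2rb2, Drd2 or Calb2 numbered 11 and 15 in Control against 7 and 5 in Kat6a-cKO, that is 6.63% and 9.93% against 2.25% and 2.26% of the nuclei. In other excitatory nuclei the share was 2.69% and 2.71% in Control against 2.97% and 2.12% in Kat6a-cKO. Members with 2 or more such UMIs numbered 7 and 12 against 1 and 2. In the members with at least 1 such UMI, Gm32647 was at 5556 CPM, against 65.9 CPM in the other members, Trps1 at 2595 against 50.2 CPM and Trhde at 937 against 71.8 CPM. Of the 14 genes that fell, 13 were at least 2-fold higher in them (with 5 CPM added to both sides), which for Csf2rb2 follows from the choice of the nuclei. How many of all tested genes were 2-fold higher in them was not counted, so this number has no share to stand beside. Inpp4b was at 528 against 73.6 CPM. Gpc5 alone was not higher, at 341 against 584 CPM. The 3 marker genes were fixed as mossy cell markers, but leaving these nuclei out was an alternative chosen after the data were seen, and it takes Csf2rb2 to 0 by construction.

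Without these nuclei 2 of 11813 genes passed, 0.0169% of those tested, namely Gm3279 (log2 fold change 4.64 ± 0.31) and Gpc5 (−0.75 ± 0.10, adjusted p = 0.041). Gpc5 was then at 748 and 818 CPM in Control against 484 and 448 CPM in Kat6a-cKO. In other excitatory nuclei Gpc5 was at 481 and 504 CPM against 352 and 328 CPM (log2 fold change −0.54, adjusted p = 0.0691), and its interaction with class over all nuclei was −0.14 (adjusted p = 0.738), so no difference between the classes was shown. Of the 14 genes that fell, 12 could still be tested, 10 kept their direction and 1 still passed. The log2 fold changes moved by unequal amounts. Those of Adamts18, 9530026P05Rik and Bmpr1b were −1.06, −1.23 and −0.88 on the log2 scale, beside −1.35, −2.22 and −1.73 over all nuclei, and none of the 3 passed. The log2 fold change of Trhde was then −0.30, that of Synpr −0.35 and that of Inpp4b −0.19, while Trps1 and Gm32647 changed sign to 0.72 and 0.13, and none of these 5 passed. Gm32647, as the clearest case, was at 67.0 and 57.6 CPM in Control against 75.1 and 60.8 CPM in Kat6a-cKO without them, and the groups overlapped. At an unadjusted p under 0.05 there were 650 genes in that fit.

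**Figure D4:**
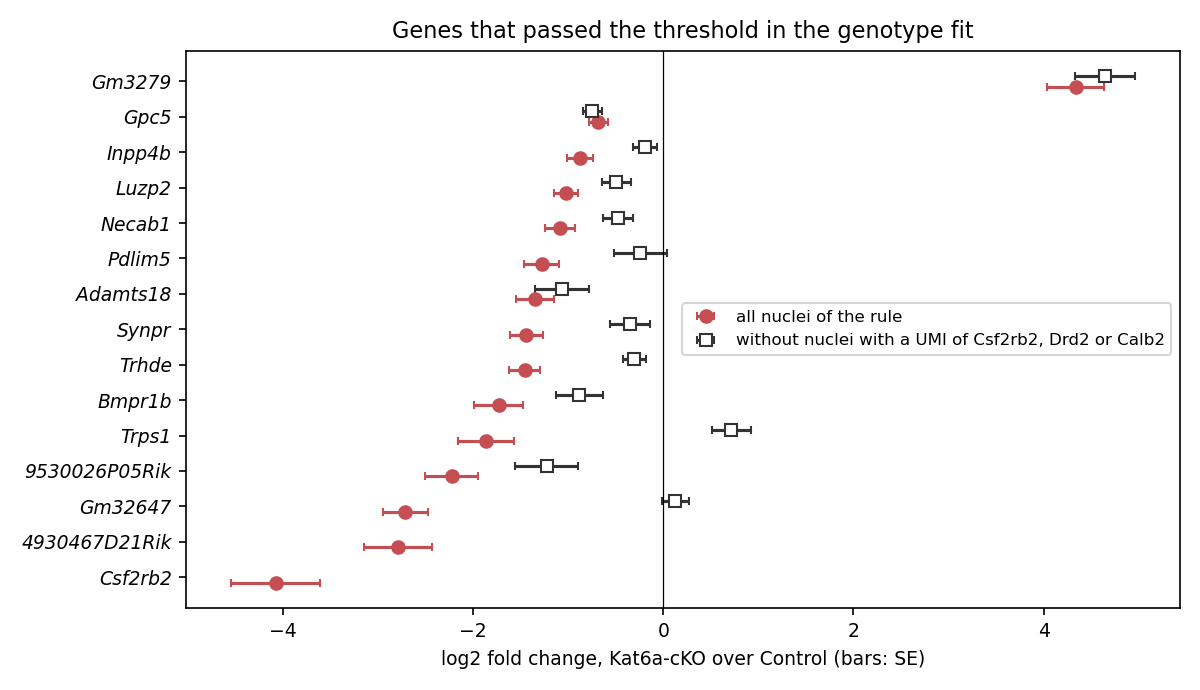
Log2 fold change of Kat6a-cKO over Control (points; bars are SE) of the 15 genes that passed the threshold, over all 849 nuclei (filled circles) and without nuclei with a UMI of Csf2rb2, Drd2 or Calb2 (open squares; 4930467D21Rik and Csf2rb2 could not be tested there). Gm3279 and Gpc5 keep their place at 4.33 and 4.64 and at −0.68 and −0.75, and Gm32647 moves from −2.71 to 0.13.

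With the rule set aside, the numbers of nuclei with these 3 markers overlapped between the groups. Excitatory nuclei with 2 or more UMIs summed over Csf2rb2, Drd2 and Calb2 numbered 41 and 60 in Control against 62 and 48 in Kat6a-cKO, 0.719% and 1.02% against 1.11% and 0.822% of excitatory nuclei. Of these, 7 and 12 met the rule in Control (17.1% and 20.0%) and 1 and 2 in Kat6a-cKO (1.61% and 4.17%). Over all of them, Klhl1 was at 91.5 and 70.3 CPM in Control against 21.2 and 25.8 CPM in Kat6a-cKO, and Grm8 at 1104 and 1059 CPM against 407 and 659 CPM. Nuclei with 2 or more Klhl1 UMIs numbered 19 and 18 among them in Control against 5 and 8 in Kat6a-cKO. Fras1 was at 201 and 175 CPM against 220 and 279, and Sorcs1 at 105 and 72.1 against 92.2 and 77.4. Klhl1 and Grm8 were thus lower in both Kat6a-cKO libraries in nuclei chosen on other genes, while Fras1 and Sorcs1 were not. No test was made of these values, which were looked at after the genotype comparison.

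**Figure D5:**
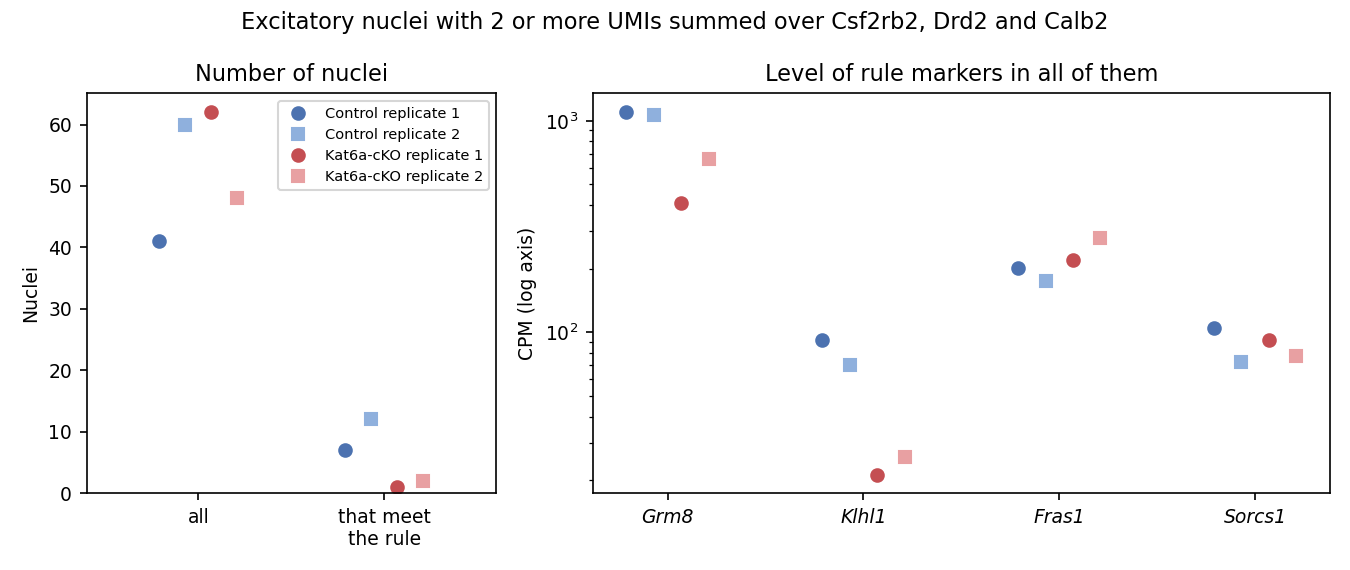
Left, the number of excitatory nuclei with 2 or more UMIs summed over Csf2rb2, Drd2 and Calb2 and the number of these that met the rule, and right, CPM (log axis) of 4 rule markers over all of them, with 1 point per library. The Klhl1 points lie at 70.3 and 91.5 CPM in Control and at 21.2 and 25.8 CPM in Kat6a-cKO, and the numbers of nuclei, 41 to 62, overlap between the groups.

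In the edgeR test over all nuclei no gene other than Gm3279 rose past the threshold, and the 8 rises of smallest p whose libraries did not overlap are given as values that did not pass. Over all genes, both Kat6a-cKO libraries lay above both Control libraries in 2028 genes (16.7%) and below them in 2230 (18.4%). Sgcz, a sarcoglycan, was at 652 and 618 CPM in Control against 986 and 924 CPM in Kat6a-cKO (log2 fold change 0.59 ± 0.10, adjusted p = 0.0541). Sgcz passed in 9 of 18 alternatives, among them DESeq2 (adjusted p = 7.5e-05), the replicate block (adjusted p = 0.0334) and the fit without doublets (adjusted p = 0.0249). Its values in other excitatory nuclei were 128 and 117 CPM against 242 and 169 CPM. Sub-cluster 1, which holds the most Sgcz, also made up more of the nuclei in Kat6a-cKO (23.2% and 19.9%, against 15.7% and 17.2%), and its part in the difference was not tested. In sub-cluster 1, 145 of 168 nuclei had 2 or more Klhl1 UMIs. Among nuclei without a UMI of Csf2rb2, Drd2 or Calb2, the log2 fold change of Sgcz was 0.32 with 2 or more Klhl1 UMIs (adjusted p = 0.952, edgeR). With 0 or 1 Klhl1 UMIs it was 0.95 (adjusted p = 0.0050, edgeR). The clock transcription factor gene Npas2 was at 134 and 119 CPM against 200 and 174 (0.56 ± 0.11, adjusted p = 0.135). Lypd1, a GPI-anchored modulator of acetylcholine receptors, was at 3.99 and 11.3 CPM against 22.0 and 22.8 (1.57 ± 0.32, adjusted p = 0.135). The log2 fold change of Lypd1 was 0.98 without Control 1 and 2.48 without Control 2 (adjusted p = 9.7e-11). The other 5 were Pcdh11x, Lnx2, Mamld1, Gm48743 and Tmc7, with log2 fold changes of 0.76, 0.73, 0.46, 0.59 and 0.67. Of 18 alternatives each, Npas2 and Pcdh11x passed in 4, Lypd1 in 3, Tmc7 in 2 and Lnx2, Mamld1 and Gm48743 in 1.

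In the lists of the genotype comparison, counts of calls stand beside the 0.124% of all genes that passed, a share at which lists of this size are near 0 calls whatever their genes. Of 7 tested genes of the Kat6a list none passed, and their median log2 fold change was 0.14, beside 0.00 over all genes tested. Of 25 tested Wnt and R-spondin genes none passed, with a median of 0.03. Rspo2, which the title of the study names, was at 160 and 150 CPM in Control against 167 and 136 CPM in Kat6a-cKO (log2 fold change −0.03 ± 0.12, adjusted p = 0.986), and the groups overlapped. In other excitatory nuclei its log2 fold change was −0.37 (adjusted p = 0.374), and the interaction with class was 0.34 (adjusted p = 0.137), so no difference between the classes was shown.

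Of 22 glutamate receptor genes tested none passed (median 0.00), and the smallest p was that of Grik4, at 161 and 195 CPM in Control against 124 and 98.3 CPM in Kat6a-cKO (−0.67 ± 0.13, adjusted p = 0.134). None of 29 potassium channel genes (median 0.03), 21 calcium, sodium and HCN channel genes (median −0.01) and 39 axon guidance genes (median 0.10) passed. The ephrin receptor gene Epha3 was nearest, at 91.9 and 138 CPM against 40.7 and 59.6 (−1.21 ± 0.20, adjusted p = 0.0582). Of 18 immediate early genes none passed, with a median of 0.21, and Egr1 was at 7.52 and 18.2 CPM in Control against 26.1 and 21.4 CPM in Kat6a-cKO (0.91 ± 0.30, adjusted p = 0.559). Of 11 neuropeptide and receptor genes none passed (median −0.25). Among relatives of the rule genes, 1 of 3 tested PDZ-LIM genes passed, Pdlim5, with a median of −0.68 over the 3. Without nuclei with a UMI of Csf2rb2, Drd2 or Calb2 none of them passed, the median was −0.24 and Pdlim5 was at −0.24 (adjusted p = 0.978). Ldb3 was at 18.6 and 24.8 CPM against 13.6 and 13.3 (−0.68 ± 0.20, adjusted p = 0.45) and did not pass. None of 11 Klhl genes, 4 Vps10 genes, 4 Fras1 Frem matrix genes and 3 Tox genes passed.

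A test of the interaction of class and genotype asked whether the genotype difference in the nuclei of the rule was unlike that in other excitatory nuclei of the same libraries. It passed for 109 of 17995 genes (0.606%), with the difference more positive in the nuclei of the rule for 23 and more negative for 86. Without the library block 13 genes passed, 1 more positive and 12 more negative, and without a filter on low counts 209 did. At the head were again genes of the Csf2rb2 nuclei, such as Gm32647, with a difference of −3.37 ± 0.14 on the log2 scale. Without nuclei with a UMI of Csf2rb2, Drd2 or Calb2 in both classes, 32 of 17833 genes passed, 12 more positive and 20 more negative, and 26 of them were among the 109. Over all nuclei the count was 64 without Control 2, 179 without Kat6a-cKO 1 and 187 without Kat6a-cKO 2.

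These 32 genes are given as an alternative chosen after the data were seen. The growth factor gene Tgfb2 had a difference of −0.98 ± 0.12, the cation channel gene Trpm3 −0.66 ± 0.10, the serotonin receptor gene Htr2c −0.54 ± 0.09 and the Kit ligand gene Kitl −1.13 ± 0.20. On the other side were the phosphodiesterase gene Pde11a (0.80 ± 0.11), the protease gene Adamts2 (0.96 ± 0.16), Lnx2 (1.10 ± 0.19), Lypd1 (1.24 ± 0.24) and Reln (1.43 ± 0.27), the gene of a secreted protein. The myelin genes Mobp and Mbp were also among them, at 2.12 and 0.71. The summed oligodendrocyte markers were at 95.3, 125, 171 and 117 CPM in the nuclei of the rule and 279, 282, 288 and 210 CPM in the others, and their part in these 2 genes was not tested. Dpp10 had the smallest p (−0.90 ± 0.08), with a log2 fold change of 0.40 in the nuclei of the rule without those nuclei, so its log2 fold change was larger in the other class. Some of the 32 genes differed between sub-clusters, whose shares differed between libraries. Kitl was at 283 CPM in sub-cluster 9 against 10.9 CPM in the rest. Reln was at 45.7, 52.8 and 42.25 CPM in sub-clusters 1, 5 and 8, and at 0 to 12.7 CPM in the others. The part of the sub-clusters in these interactions was not tested.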

How the data were processed

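Counts were used as the authors deposited them: whole-number UMI counts per gene and barcode for 4 libraries, 2 Control and 2 Kat6a-cKO. The submitters' processing notes name Seurat 4.0.1 and the mm10 genome, and the aligner is not given in the sources used here. Of 55422 gene IDs, 54587 matched GENCODE M21 on GRCm38 with their version. The members and lists were chosen with earlier results of these data known.

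UMIs of the selected nuclei were summed per library and tested across all genes with edgeR 4.0.16 (TMM, quasi-likelihood, Benjamini-Hochberg adjustment, genes with low counts left out), using the 2 groups without a covariate. The interaction test used both classes of nuclei with the library as a block. DESeq2 1.42.0 was an alternative. The statistics were tested on simulated data. Nuclei were clustered with scanpy 1.11.5 (2000 variable genes, 20 components, 15 neighbours, Leiden resolution 0.5). Doublets were marked by Scrublet (expected rate 0.06) and kept.

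Genes were named by a fixed rule: the 25 highest and 10 lowest ratios to other excitatory nuclei (at least 20 CPM in the higher class), up to 15 genes past the threshold per direction, 8 rises of smallest p, the 10 interactions of smallest p, and list members. Genes described in sub-clusters, marker genes of single classes, and the further genes of the interaction without Csf2rb2, Drd2 or Calb2 nuclei were chosen after their values were seen. Alternatives that use Csf2rb2, Drd2 or Calb2, Klhl1, thinning or Prox1 were chosen after seeing the data.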

Additional observations from a re-analysis of the deposited data

Results flagged for a closer look

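The test of the difference between classes passed for 109 of 17995 genes (0.606%), and the 10 of these with the smallest p are given here. That each of the 10 passed follows from this choice. Given as the log2 genotype difference in the nuclei of the rule minus that in other excitatory nuclei, the value was −3.37 for Gm32647, −2.47 for 9530026P05Rik, −3.31 for 4930467D21Rik and −1.47 for Trhde. It was −1.74 for Pdlim5, −1.28 for Inpp4b and −5.48 for Csf2rb2 (−4.44 without Kat6a-cKO 1 and −6.47 without Kat6a-cKO 2). For Spock1, Etl4 and Sdk1 it was −0.84, −0.67 and −0.87. Without the library block Spock1 (adjusted p = 0.0743) and Sdk1 (adjusted p = 0.99) did not pass the edgeR test.

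Without nuclei with a UMI of Csf2rb2, Drd2 or Calb2 in both classes, 4 of these genes still passed the edgeR test. They were 9530026P05Rik (−1.48, adjusted p = 0.0141), Inpp4b (−0.59, adjusted p = 0.00866), Etl4 (−0.37, adjusted p = 0.025) and Sdk1 (−0.49, adjusted p = 0.0185). Gm32647 (−0.52), 4930467D21Rik (−0.61), Trhde (−0.34), Pdlim5 (−0.68) and Spock1 (−0.39) did not pass, and Csf2rb2 could not be tested.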

How the results depend on the processing

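The genotype count of 15 genes was 24 with DESeq2, 24 with the replicate number as a block, 173 without a filter on low counts, 38 without doublets, 5 without nuclei with 3 or more glial UMIs, 2 with at least 5 markers and 1 with at least 3. It was 31 to 143 with 1 library left out, 2 without Csf2rb2, Drd2 or Calb2 nuclei, 59 in nuclei with 2 or more Klhl1 UMIs, 2 in those without the 3 genes, 6 in nuclei with 0 or 1 Klhl1 UMIs without them, and 3 after thinning. DESeq2 and the block each shared 13 genes with the 15: DESeq2 lost Trps1 (adjusted p = 0.442) and Adamts18 (0.0602), and the block lost Bmpr1b (0.0837) and Adamts18 (0.0529). The deviations of same-numbered libraries from their group means correlated at 0.0961 over 12116 genes. With 2 libraries a group, both same-numbered pairs give the same value and the crossed pairing gives −0.0961. A pairing beyond the shared number is not given by the labels. The interaction count of 109 was 209 without the filter, 13 without the library block, 64 to 187 with 1 library left out and 32 without the 3 genes. The share difference was 1.04 to 2.82 percentage points with 1 library left out and kept its direction in each alternative run. The causes were not tested.

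Some genes changed sign. With at least 5 markers the log2 fold change was 0.18 for Trhde, 1.15 for Trps1, 0.74 for Pdlim5, 0.20 for Necab1, 0.41 for Luzp2 and 1.14 for Gm32647. Without nuclei with 3 or more glial UMIs it was 0.18 for Trps1, 0.031 for Pdlim5, 0.19 for Rspo2 and 1.51 for Gm32647. Most nuclei of each library were left out there, and Gm32647 passed (adjusted p = 0.0171, edgeR). Without Csf2rb2, Drd2 or Calb2 nuclei the log2 fold change was 0.72 for Trps1, 0.13 for Gm32647 and 0.000724 for Rspo2. Within nuclei with 2 or more Klhl1 UMIs and none of the 3 genes it was 0.0798 for Synpr, 0.90 for Trps1 and 0.57 for Gm32647, and with 0 or 1 Klhl1 UMIs 0.57 for Trps1 and 0.10 for Kat6a. With 1 library left out, Rspo2 was at −0.19 to 0.11, above 0 without Control 1 or Kat6a-cKO 2, and Kat6a at −0.0661 to 0.0535, above 0 without Kat6a-cKO 1. Kat6a was at 0.0058 with DESeq2 and 0.0159 without the filter. Gm3279 passed in all 18 alternatives and Gpc5 in 17. The precision rests on 2 libraries a group, with 3701901 to 6823783 UMIs per sum.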
